A study of Homo sapiens with 52 samples.

Results

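The comparison described here is that of mRNA levels in HEK293T cells after siRNA against DENR with those after a control siRNA. It rests on 6 RNA-seq libraries of the 42 in the deposited table: 2 labelled siDENR #1, 2 labelled siDENR #2 and 2 labelled siControl. The libraries were chosen by these labels, and transcripts that moved the same way with each siRNA were given priority. HEK293T is a transformed human embryonic kidney line that carries the SV40 large T antigen, and all 6 libraries come from it without any other genetic change named in the labels. The sources used here give no siRNA sequence, dose or time after transfection. Set beside these were 6 Ribo-seq libraries of the same groups (fragments protected by ribosomes) and RNA-seq of 2 MCTS1 knockout (KO) clones, MCTS1 KO #1 and #2, and of wild type (WT) cells, whose labels name no siRNA. Each of these groups had 2 libraries. A clone is the progeny of 1 cell, and the labels do not say whether the 2 libraries of a group stem from separate cultures. The p-values therefore cover the spread between libraries alone, and that spread may be technical.

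DENR (density-regulated protein) pairs with MCTS1, and the complex sits on the small (40S) ribosomal subunit. It is known to help remove the last tRNA from 40S subunits after a ribosome has finished a reading frame, and to help ribosomes start again downstream of short upstream reading frames. eIF2D carries related domains in a single protein. An siRNA guides the Argonaute complex to an mRNA that matches it, which is then cut and degraded, so RNA-seq reads the first step of such a depletion.

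The 6 libraries held 76967099 to 104084653 counts per library, made by the authors per transcript, and 131311 of 226882 transcripts had enough counts to be tested. The table gives transcript identifiers without gene names, and the reference tables used here do not pair them either. The target gene could therefore not be checked in these libraries, the gene lists and cell type markers that had been planned could not be tested, and at most 2 transcripts in each direction are given by identifier. Replicate libraries differed by 1.4 to 1.9 times counting noise within the 3 groups, with siDENR #1 the widest.

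Many transcripts differed in level with each of the siRNAs, most of them by less than 1.5-fold. In the mean of both siRNAs 30382 transcripts differed from siControl, 23.1% of those tested (edgeR's quasi-likelihood test, Benjamini-Hochberg adjusted p under 0.05), 13457 of them higher (10.2%) and 16925 lower (12.9%). The larger side turned with the scaling, at 15782 higher and 14260 lower with library totals and 15899 and 14452 with upper quartile factors. With siDENR #1 alone 16145 were higher (12.3%) and 18010 lower (13.7%), and with siDENR #2 alone 11670 were higher (8.89%) and 13502 lower (10.3%). Of the 30382, 10742 also passed with each siRNA alone and in the same direction, 8.18% of those tested. Among them 5651 were higher (4.3% of those tested) and 5091 were lower (3.88%) after DENR siRNA than after control siRNA. The median log2 change was 0.54 in the higher ones and -0.54 in the lower ones, against -0.01 over all tested. Both single-siRNA comparisons use the same 2 siControl libraries, so their directions are not independent. A further 18584 transcripts called in the mean passed with 1 siRNA only, 11472 with siDENR #1 and 7112 with siDENR #2. Of these 18584, 9757 differed between the siRNAs by the test of siDENR #1 minus siDENR #2. All 4 siDENR libraries lay above both siControl libraries for 5642 of the 5651 and below both for 5064 of the 5091, which their choice largely fixes, where 17.8% and 13.1% of all tested did. Leaving out a library, which leaves 1 in its group, changed these counts. In the mean 14731 were called without siControl library 1 and 15657 without siControl library 2. The count called with each siRNA was 5151 without siControl library 1, 5591 without siControl library 2 and 6180 without library 1 of siDENR #2.

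**Figure D1:**
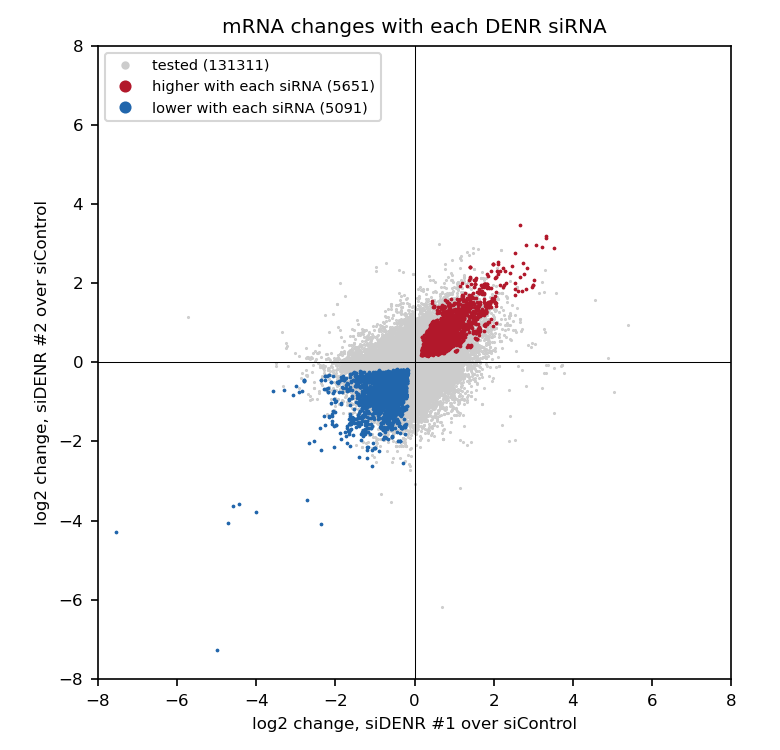
Each point is a transcript, with its log2 change in siDENR #1 over siControl on the x axis and in siDENR #2 over siControl on the y axis. The 5651 transcripts higher with each siRNA are red, the 5091 lower with each are blue, and the 131311 tested are grey. Both axes share the siControl libraries. A few blue points lie far below the rest. Some are near -4 on both axes, and rare transcripts lie farther out, at -4.99 and -7.26 or at -7.54 and -4.29.

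Changes of at least 2-fold were a small part of these and lay more on the higher side. With each siRNA 486 transcripts were at least 2-fold higher (0.37% of those tested) and 199 at least 2-fold lower (0.152%). At 1.5-fold the numbers were 1851 and 1231, and at 4-fold 26 and 11. The log2 size in the weaker siRNA ran on without a gap across the 2-fold line, at 1.00 just inside and 0.999 just outside it in both directions. Transcripts of 1 gene can share reads, so they do not count as separate genes. By the likeness of their replicate deviations over the 42 libraries (correlation above 0.95), the 486 fell into 367 groups and the 199 into 161. These are called groups of shared reads here, although the sharing itself was not tested. Transcripts that share reads may still lie in separate groups. The total of 685 was 449 with DESeq2 and 402 when a level of 1 CPM or more (counts relative to each library's total) was asked for in 2 libraries.

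Calls were more frequent among abundant transcripts, and large changes among rare ones. Below 1 CPM 2.15% of 42742 transcripts were called with each siRNA, with a median log2 size of 0.88 in the weaker siRNA. Between 5 and 20 CPM 14.6% of 30723 were called, with a median size of 0.36. At 100 CPM or more 63 were higher and 107 lower of 1255, with a median size of 0.27, and 4 of these were at least 2-fold higher and 0 at least 2-fold lower. Fewer counts limit what can be called below 1 CPM, where 1 count in the smallest library is 0.013 CPM. The mean level is taken over 4 siDENR and 2 siControl libraries, so it leans to the siDENR level.

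**Figure D2:**
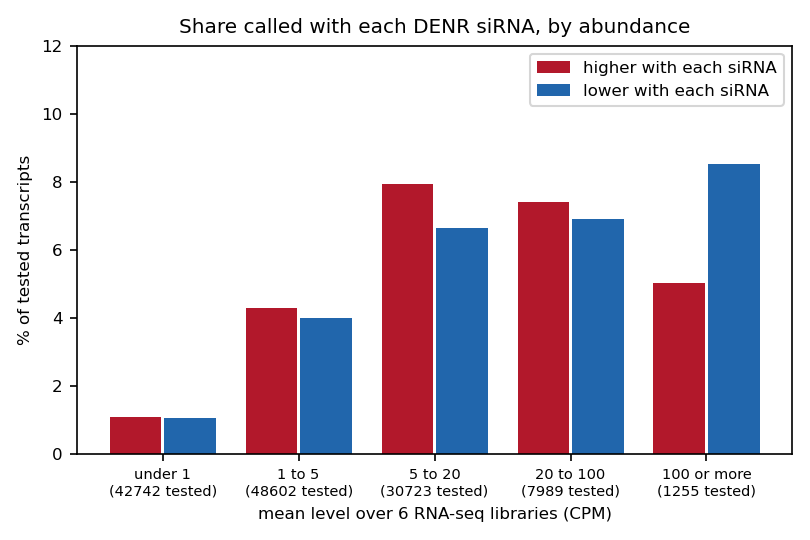
Bars give the percentage of tested transcripts that were higher (red) or lower (blue) with each siRNA, in classes of mean level over the 6 libraries (CPM). Below 1 CPM few were called in either direction, and at 100 CPM or more the lower ones (107) outnumbered the higher ones (63).

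Among transcripts averaging at least 5 CPM, a pair fell far more than the others called with each siRNA. ENST00000455982.2 stood at 0.737 and 0.845 CPM in the siDENR #1 libraries and at 1.6 and 1.59 CPM in the siDENR #2 libraries, against 20.2 and 17.9 CPM in the siControl libraries. The 4 siDENR values lie far below both siControl values. Its log2 change was -4.11 ± 0.10 (SE, n = 4 against 2 libraries, edgeR adjusted p = 2.3e-39), which is 17.2-fold lower. ENST00000280557.11 stood at 1.21, 1.69, 2.68 and 2.8 CPM in the same 4 libraries, against 33.6 and 29.8 CPM with control siRNA. Its log2 change was -4.01 ± 0.09 (edgeR adjusted p = 3.3e-41). The next largest fall among the 2697 lower transcripts at this level had a log2 size of only 1.57 in its weaker siRNA, against 3.63 and 3.58 for this pair. Below 5 CPM other transcripts fell as far. An example averaged 2.66 CPM, with log2 changes of -4.71 with siDENR #1 and -4.06 with siDENR #2. Whether the pair belongs to DENR was not checked, for want of gene names.

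The depth of this fall differed between the siRNAs. The log2 change of ENST00000455982.2 was -4.58 ± 0.13 with siDENR #1 and -3.63 ± 0.12 with siDENR #2, and siDENR #1 minus siDENR #2 gave a difference of -0.95 ± 0.17 (edgeR adjusted p = 8.1e-06). For ENST00000280557.11 the changes were -4.44 ± 0.11 and -3.58 ± 0.11, and the difference was -0.86 ± 0.14 (edgeR adjusted p = 1.5e-06). Among transcripts averaging at least 1 CPM, neither had another whose replicate deviations correlated with its own above 0.95, and their own deviations correlated at 0.891 over the 42 libraries.

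In MCTS1 KO and WT cells both transcripts stood near or above their siControl level. ENST00000455982.2 averaged 22.1 ± 0.83 CPM in MCTS1 KO #1 and 22.4 ± 0.528 in MCTS1 KO #2, and 23.2 ± 0.0179 in WT (SD, n = 2 each). The mean of the KO clones differed from WT by -0.06 ± 0.04 on the log2 scale (edgeR adjusted p = 0.32). ENST00000280557.11 averaged 35.3 ± 2.4 and 38.1 ± 0.0284 CPM in the clones and 38.8 ± 0.271 in WT (SD, n = 2 each), a log2 difference of -0.08 ± 0.04 (edgeR adjusted p = 0.1). Clone #1 alone was lower than WT, by log2 differences of -0.11 ± 0.05 and -0.17 ± 0.04 (edgeR adjusted p = 0.041 and 0.00044), and clone #2 differed by -0.01 and 0.01. Set against WT in place of siControl, their changes after DENR siRNA were -4.40 ± 0.09 and -4.31 ± 0.08.

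Ribo-seq counts of this pair fell too, by smaller log2 changes than their mRNA counts, a difference between assays that was not tested. The Ribo-seq counts left after DENR siRNA were nearly the same in both transcripts, as given below. Whether they are the same reads counted for both was not tested. ENST00000280557.11 had 9.26, 9.66, 10.4 and 6.23 CPM in the 4 siDENR Ribo-seq libraries, against 18.4 and 16.5 CPM with control siRNA, a log2 change of -0.97 ± 0.12 (edgeR adjusted p = 3.3e-08). ENST00000455982.2 had 9.26, 9.61, 10.3 and 6.11 CPM, against 14.6 and 12.7 CPM, a log2 change of -0.63 ± 0.13 (edgeR adjusted p = 0.00034). Again all siDENR libraries lie below both controls.

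The 2 transcripts of the pair had nearly the same Ribo-seq counts after DENR siRNA, which was noticed after their values had been seen. In the siDENR libraries ENST00000280557.11 had 0, 1, 4 and 2 counts more than ENST00000455982.2, in all with 227, 199, 287 and 102 counts. In the siControl libraries it had 110 and 125 counts more, and in WT 117 and 221. In RNA-seq its surplus was 41, 83, 87 and 97 counts with DENR siRNA, against 1035 and 1239 with control siRNA. The surplus is thus near 0 in all 4 siDENR Ribo-seq libraries and above 100 in the siControl and WT Ribo-seq libraries. The sources used here do not say whether the 2 transcripts share reads, or which.

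Among transcripts averaging at least 5 CPM, the pair with the largest rises had the opposite layout, with the siControl libraries apart from the other RNA-seq libraries shown. ENST00000426530.2 stood at 8.88 and 8.27 CPM in the siDENR #1 libraries and at 7.18 and 7.16 CPM in the siDENR #2 libraries, against 1.66 and 1.75 CPM with control siRNA. Its log2 change was 2.17 ± 0.11 (edgeR adjusted p = 5.7e-23), with each siDENR library above both controls. In WT, however, it stood at 6.71 and 7.0 CPM, and siDENR differed from WT by 0.16 ± 0.08 on the log2 scale (edgeR adjusted p = 0.12). With siDENR #1 alone it was higher than WT, by 0.31 ± 0.09 (edgeR adjusted p = 0.0086), and with siDENR #2 the difference was 0.01 ± 0.10 (edgeR adjusted p = 0.94). The MCTS1 KO libraries lay at 6.87 to 7.72 CPM, also above both siControl libraries.

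ENST00000326656.12 had much the same values and may share reads with ENST00000426530.2, their replicate deviations correlating at 0.97 over the 42 libraries. It stood at 8.98, 8.38, 7.31 and 7.34 CPM in the 4 siDENR libraries, against 1.81 and 1.82 CPM with control siRNA, a log2 change of 2.11 ± 0.11 (edgeR adjusted p = 9e-23). WT libraries had 6.86 and 7.19 CPM, and siDENR differed from them by 0.15 ± 0.08 (edgeR adjusted p = 0.15), with siDENR #1 alone by 0.30 ± 0.09 (edgeR adjusted p = 0.013). In Ribo-seq both transcripts were again lowest in the siControl libraries, but there WT averaged above each siDENR group. ENST00000426530.2 had 3.14, 3.54, 3.01 and 1.47 CPM with DENR siRNA, 0.51 and 0.881 CPM with control siRNA, and 3.26 and 4.42 CPM in WT.

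**Figure D3:**
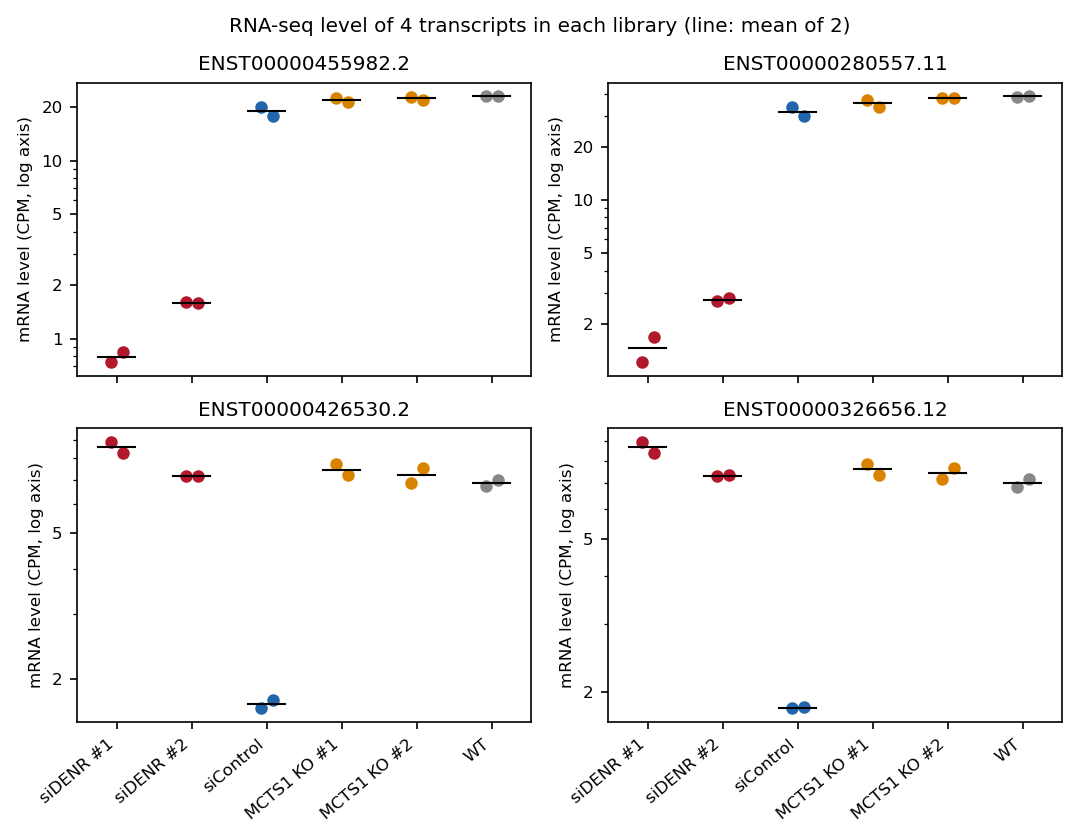
Each panel gives the RNA-seq level of 1 transcript (CPM, log axis) in each library, with siDENR in red, siControl in blue, MCTS1 KO in orange and WT in grey, and a line at the mean of 2 libraries. ENST00000455982.2 and ENST00000280557.11 are low in the 4 siDENR libraries alone among the 12, and ENST00000426530.2 and ENST00000326656.12 are low in the 2 siControl libraries alone.

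This split between falls and rises held for the other large changes of abundant transcripts. Of the 145 that averaged at least 5 CPM and were at least 2-fold higher with each siRNA, in 94 groups of shared reads, both WT libraries lay above both siControl libraries for 145, where 31.2% of all tested and 39.2% of those at 5 CPM or more did. Both WT libraries lay below all 4 siDENR libraries for 94 of the 145 (24.2% of all tested, 31.1% at 5 CPM or more) and above all 4 for 18. On the log2 scale the WT mean lay nearer to siDENR than to siControl for 144 of the 145 (43.7% of all tested, 38.4% at 5 CPM or more), with a median of 1.11 above siControl and 0.20 below siDENR (log2 differences of 1.11 and -0.2). With WT in place of siControl, 0 of the 145 were at least 2-fold higher with each siRNA, and 56 were still called higher with each. In the mean of both siRNAs 74 were higher than WT, 19 lower and 52 not called, where 18.4% of all tested were higher and 20.8% lower. The 145 were chosen on these siControl libraries, so part of their distance from WT may come with the choice. The mean of 5 CPM is taken over 4 siDENR and 2 siControl libraries. A rise therefore passes it more easily than a fall between like levels, and the numbers passing in each direction cannot be compared. What sets the siControl libraries apart was not tested.

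The large falls of abundant transcripts stood against WT as well. Of the 35 that averaged at least 5 CPM and were at least 2-fold lower with each siRNA, in 22 groups of shared reads, 35 were called lower with each siRNA against WT and 16 were at least 2-fold lower there. For 35 of 35 both WT libraries lay above all 4 siDENR libraries, where 19.3% of all tested and 26.2% of those at 5 CPM or more did, though the 35 were chosen on these siDENR libraries. For 0 of them did the WT mean lie nearer to siDENR than to siControl. Both WT libraries lay below both siControl libraries for 16 of the 35 and above both for 13. Of all transcripts at 5 CPM or more, 39.2% had both WT libraries above both siControl libraries. The median log2 difference of WT from siControl was -0.08 for the 35. Their median log2 change was -1.53 against siControl and -1.38 against WT. Over all tested transcripts, 12855 were higher and 12519 lower with each siRNA than in WT (9.79% and 9.54%), more than against siControl.

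With the rarer transcripts included, the contrast was less sharp. Of all 486 at least 2-fold higher, 136 (28%) were called higher with each siRNA against WT, 30 (6.17%) by at least 2-fold, and 56 were lower than WT in the mean. Of the 199 lower ones 186 could be tested against WT, 111 of these (59.7%) were called lower with each siRNA, 66 (35.5%) by at least 2-fold, and 0 were higher in the mean. The median log2 change of the higher ones was 1.34 against siControl and 0.27 against WT, and that of the lower ones tested was -1.41 and -1.04. The WT mean lay nearer to siDENR for 381 of the 486 and for 64 of the 199, against 43.7% of all tested. Of all 131294 transcripts tested against WT, 9.79% were higher and 9.54% lower with each siRNA, 932 and 327 transcripts by at least 2-fold. In the mean 18.4% of them were higher and 20.8% lower.

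**Figure D4:**
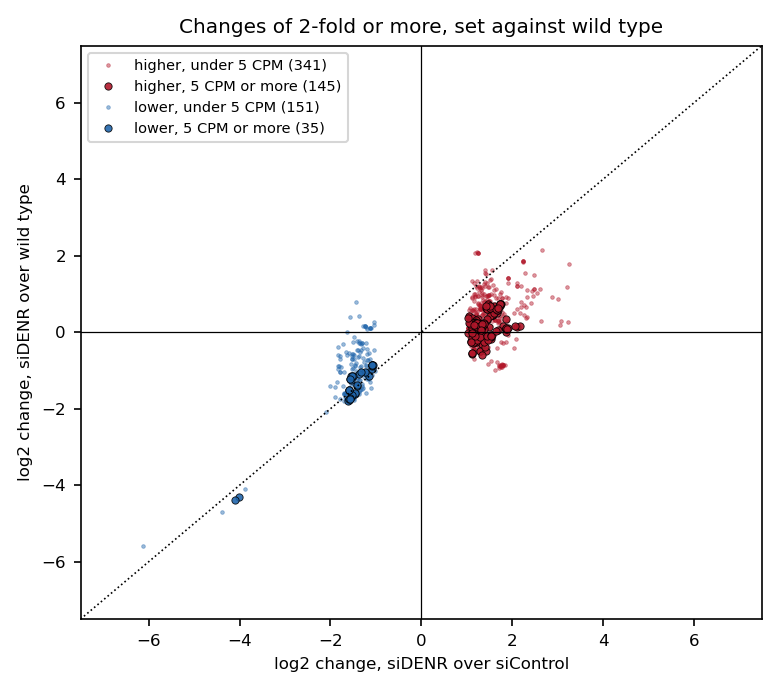
Each point is a transcript at least 2-fold higher (red) or lower (blue) with each siRNA than siControl, with its log2 change over siControl on the x axis and over WT on the y axis; outlined points average 5 CPM or more, and 13 of the 199 lower ones were not tested against WT. The 145 outlined red points lie close to 0 on the y axis (median 0.17), while the 35 outlined blue points lie near the dotted line of equal change.

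Few transcripts changed at least 2-fold with each siRNA against both controls, a set chosen after the data had been seen. There were 30 higher ones in 23 groups of shared reads, 0 of them at 5 CPM or more, with a median level of 0.335 CPM. The 66 lower ones formed 52 groups and had a median of 2.09 CPM, and 16 of them, in 7 groups, reached 5 CPM. In Ribo-seq 49 of the 54 lower ones that could be tested were called lower and 0 higher, with a median log2 change of -1.80. Of all transcripts tested in Ribo-seq 6.05% were called lower and 4.37% higher. Of the higher ones 4 could be tested in Ribo-seq and 0 were called in either direction. The siDENR libraries are part of both comparisons, so the 2 controls are no independent repeats.

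Ribo-seq of the same conditions, made in other libraries, moved with the mRNA. Of the 5651 higher transcripts 5213 passed the Ribo-seq filter on low counts, and 2023 of these (38.8%) were called higher and 3 lower in the mean of both siRNAs. Of the 108890 transcripts tested 10.4% were called, 4.37% higher and 6.05% lower. Of the 5091 lower ones 4731 passed, and 2057 (43.5%) were called lower and 1 higher. With each siRNA alone Ribo-seq called 1247 of the higher ones higher and 787 of the lower ones lower, where 3.06% of all tested passed so, 1.81% higher and 1.26% lower. The 2023 are 42.5% of all transcripts called higher in Ribo-seq, and the 2057 are 31.2% of those called lower. Called the same way in both assays were thus 4080 in sum over the directions, which was 2611 without siControl RNA-seq library 1 and 2641 without library 2. The median Ribo-seq log2 change was 0.48 for the higher and -0.42 for the lower ones, against -0.02 over all.

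The larger mRNA changes had Ribo-seq changes of like size in the median. Among the at least 2-fold ones 321 higher transcripts passed the Ribo-seq filter, with a median log2 change of 1.53 in Ribo-seq and 1.31 in RNA-seq. The 128 lower ones that passed had medians of -1.22 in Ribo-seq and -1.42 in RNA-seq. Of these, 241 were called higher and 88 lower, and 0 were called in the other direction. In Ribo-seq, too, siControl stood apart from WT, by more than in RNA-seq: for the 145 abundant higher transcripts WT lay 1.76 above siControl and 0.15 below siDENR in the median (log2 differences of 1.76 and -0.15), and for 139 it lay nearer to siDENR (52.2% of all tested, 51.4% at 5 CPM or more).

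**Figure D5:**
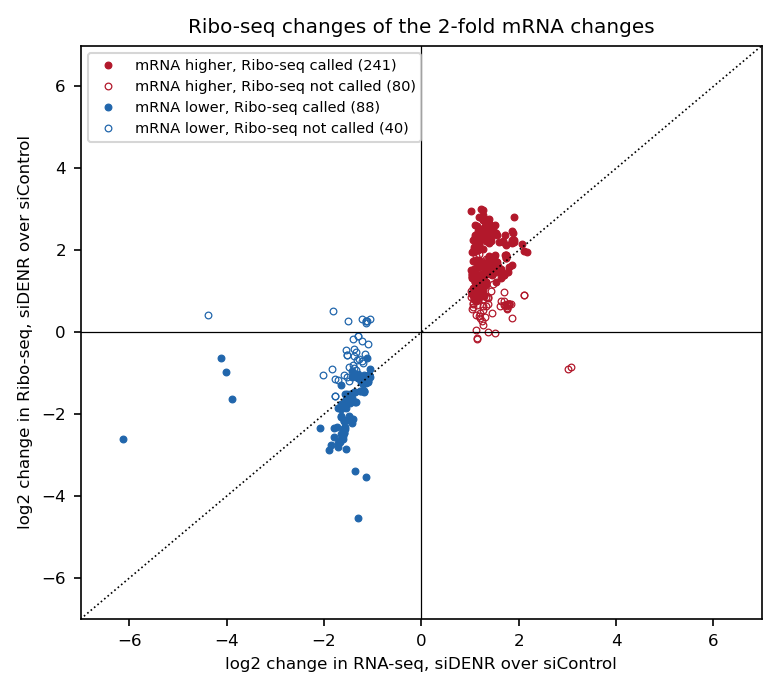
Points are the 321 higher (red) and 128 lower (blue) transcripts of at least 2-fold mRNA change that could be tested in Ribo-seq, with the log2 change in RNA-seq on the x axis and in Ribo-seq on the y axis; filled points were called in Ribo-seq (241 and 88). Most lie in the quadrants of equal sign around the dotted line of equal change, and the blue points with the largest mRNA falls lie above it.

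In MCTS1 KO cells these transcripts changed little in the median. The MCTS1 KO was compared with WT in RNA-seq libraries that the DENR comparison does not share. Of 5639 transcripts higher with each DENR siRNA that were tested there, 1150 (20.4%) were higher and 646 (11.5%) lower in the KO, where 24.9% of all tested were called, 11.4% higher and 13.5% lower. Of 5082 lower ones 1577 (31%) were lower and 442 (8.7%) higher. The median log2 change in the KO was 0.05 for the higher and -0.09 for the lower ones, against 0.54 and -0.54 after DENR siRNA. Called in each clone alone were 352 of the higher ones as higher and 543 of the lower ones as lower, where 5.85% of all tested passed so, 2.59% higher and 3.27% lower. In sum over the directions 2727 went the same way, which was 1433 without siControl library 1, 1564 without siControl library 2 and 1707 without library 1 of siDENR #2.

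Since abundant transcripts were called more often, the same counts were taken at 5 CPM or more. There 25.2% of the higher transcripts were higher in the MCTS1 KO and 14.2% lower, where 17.5% and 24.4% of all transcripts at that level were. Of the lower ones 38.3% were lower and 10.5% higher. No test was made of these shares, since transcripts that share reads are not independent. Among the at least 2-fold changes 92 of 474 higher ones (19.4%) were higher and 58 (12.2%) lower in the KO, and 38 of 190 lower ones (20%) were lower and 13 (6.84%) higher.

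The siRNAs differed from each other in many other transcripts. Between siDENR #1 and siDENR #2 16311 transcripts were higher and 16304 lower with #1 (24.8% of those tested in all), and 1031 were called with each siRNA in opposite directions. Leaving out library 1 or 2 of siDENR #2 gave 21633 and 19418 in place of 32615. Among the 5651 higher with each siRNA, the rise was larger with #1 for 607 and with #2 for 331 by the test of the difference. Among the 5091 lower ones the fall was larger with #1 for 593 and with #2 for 731.

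Transcripts called with each siRNA held 13.7% to 14.0% of the counts in the siDENR libraries and 14.4% in each siControl library. The 5651 higher ones held 6.63% to 6.93% of all counts in the 4 siDENR libraries, against 4.78% and 4.81% in the siControl libraries. The 5091 lower ones held 6.76% to 7.26%, against 9.63% and 9.55%. The at least 2-fold ones held far less, at 0.362% to 0.372% against 0.147% and 0.141% for the higher and at 0.0351% to 0.0406% against 0.0974% and 0.0945% for the lower. These shares describe transcripts chosen on the same libraries. Reads counted for several transcripts, where there are any, enter them more than once.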

How the data were processed

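The values are raw counts, in whole numbers for each transcript, as the authors deposited them. The tools named per the submitters' processing notes are cutadapt, STAR, Subread and featureCounts, and the builds GRCh38.p13 and hg38. Their versions and roles, strand, and the rule for reads that overlap several transcripts are not stated there. Some transcripts hold identical counts in all 42 libraries, so the library totals may count a read more than once. Neither the file nor the reference tables used here pair transcripts with genes, so the tests per gene and of gene lists that were planned were not run, and no sequence is printed.

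Groups and replicate numbers came from the labels, and 10 of 52 samples had no column in the deposited table. Libraries of groups other than those described entered no comparison and served only in measures over the 42 libraries. Counts were tested with edgeR 4.0.16 in R 4.3.3 by the robust quasi-likelihood test, with TMM factors and filterByExpr (minimum count 10). Calls are at a Benjamini-Hochberg adjusted p under 0.05. Each comparison was fitted on 6 libraries with 1 coefficient per group, which leaves 3 residual degrees of freedom, so the error does not hold the spread between siRNAs. Standard errors were taken as the log2 change divided by the root of the F statistic. CPM are counts scaled to the library total. Named transcripts are the 2 highest and 2 lowest by the weaker siRNA, among those called with each siRNA the same way and averaging at least 5 CPM. The comparison, lists and rules were chosen with earlier results of these data known. The script was tested on simulated data. Alternatives were DESeq2 1.42.0, limma 3.58.1 (voom), other scalings and filters, a replicate block, WT as the control, and each library left out. Fits of each siRNA alone and of 12 RNA-seq libraries together were also among them.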

Additional observations from a re-analysis of the deposited data

Results flagged for a closer look

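The 4 named transcripts passed both tests of a difference between effects, as did 24.8% of all tested between the siRNAs and 20.2% between DENR siRNA and MCTS1 KO. Between the siRNAs (siDENR #1 minus siDENR #2, log2), ENST00000455982.2 differed by -0.95, ENST00000280557.11 by -0.86, ENST00000426530.2 by 0.31 and ENST00000326656.12 by 0.30, with edgeR adjusted p from 1.5e-06 to 0.024. The DENR siRNA effect minus the MCTS1 KO effect, in 1 fit of 12 RNA-seq libraries, was -4.04 and -3.93 for the first pair and 2.07 and 2.00 for the second. The transcripts were chosen for their DENR siRNA effect, which is part of this difference, so its size describes them. In the plain comparison of siDENR with WT, which is neither of these tests, the second pair did not pass in the mean of both siRNAs (log2 differences of 0.16 and 0.15). A set of 1031 transcripts was called with each siRNA in opposite directions, 648 of them higher with siDENR #1 and 383 higher with siDENR #2.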

How the results depend on the processing

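The named falls passed in all 19 alternatives, with log2 changes of -4.58 to -3.62 (ENST00000455982.2) and -4.44 to -3.58 (ENST00000280557.11). Both ends of each range come from the fits of 1 siRNA alone, so they hold the difference between the siRNAs. The other alternatives gave -4.40 to -4.03 for ENST00000455982.2. The named rises passed in 18 of 19 and missed against WT (adjusted p = 0.12 and 0.15). With WT as the control 51523 transcripts were called in place of 30382, 25374 in place of 10742 with each siRNA and 1259 in place of 685 at 2-fold. DESeq2 gave 6709 with each siRNA and 449 at 2-fold, and a filter at 1 CPM in 2 libraries gave 402 at 2-fold. Without 1 library the calls ran from 14731 to 40736 in the mean, from 5151 to 14827 with each siRNA and from 598 to 782 at 2-fold, and from 19418 to 36203 between the siRNAs. Ribo-seq had 6226 calls with DESeq2 in place of 11348, and 5728 to 11593 without 1 library (6066 without siControl Ribo-seq library 1, 5728 without library 2). The MCTS1 KO had 19324 with DESeq2 in place of 32826, and 19373 to 32393 without 1 library, the lowest without WT library 2. The DENR minus MCTS1 difference had 18460 to 33995 in place of 27314. Without siControl library 1 or 2 the calls in the mean were 14731 and 15657. The cause of these shifts was not tested. Scaled by library totals 62.5% of the transcripts called with each siRNA were higher, against 52.6%, and the median log2 change over all tested was 0.017 in place of -0.011. One row for each distinct count profile, an alternative chosen after seeing the data, gave 10371 with each siRNA. Replicate numbers did not pair the siDENR with the siControl samples: replicate differences correlated at -0.202 and -0.238 between each siDENR group and siControl and at 0.415 between the siDENR groups. With the number as a replicate block 30939 were called in the mean, 11029 with each siRNA and 33313 between the siRNAs. Tests per gene were not run. Counts below about 1 CPM limit calls of rare transcripts.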
